A study of Mus musculus with 12 samples.

Results

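The genes of the ACTH receptor and of the cAMP-PKA signal that it starts were followed in RNA of the adrenal cortex of 12 mice. They were 10 genes, *Mc2r*, *Mrap*, *Gnas*, *Prkaca*, *Prkar1a*, *Prkar2a*, *Prkar2b*, *Pde8a*, *Pde8b*, and *Creb1*, listed by symbol, and all 10 were found among the 49585 genes of the deposited counts. Male C57BL/6J mice, 6 weeks old at the start, were kept on a diet for 20 weeks, which was either low in fat (LFD, called normal diet in the labels), with 10% of its energy from fat, or high in fat (HFD), with 60%. A further group was fed the HFD for 20 weeks and received icosapent ethyl, an ethyl ester of eicosapentaenoic acid, in the last 10 of them. Each group had 4 mice, and each mouse gave 1 library. The labels give the genotype Fads2-/- for all of them, whereas the study's methods describe wild-type mice for these diets, and *Fads2* was expressed at between 452 and 2181 CPM in all 12. Levels are given in CPM, counts scaled to a common library size after adjustment by the trimmed mean of M values (TMM).

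ACTH, released from the pituitary, acts on the melanocortin-2 receptor of adrenocortical cells. The receptor reaches the cell surface only together with its accessory protein MRAP, and it signals through the stimulatory G protein Gs to adenylyl cyclase, which makes cAMP. cAMP releases the catalytic subunits of protein kinase A (PKA) from their regulatory subunits, PKA phosphorylates targets such as the transcription factor CREB1, and phosphodiesterases end the signal by degrading cAMP. In the adrenal cortex this chain drives the delivery of cholesterol to mitochondria and the synthesis of glucocorticoids.

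The libraries held between 34785979 and 67295963 counts on genes. All 8 adrenocortical markers were expressed above 1 CPM, and their summed level was between 41794 and 69983 CPM in LFD, 53644 and 97456 CPM in HFD, and 56708 and 89838 CPM in icosapent ethyl mice. The 12 chromaffin markers, which mark the medulla, were all detected as well, and their sum was between 5510 and 19192 CPM in LFD, 2729 and 8587 CPM in HFD, and 4881 and 9365 CPM in icosapent ethyl mice. Their log2 fold change was above 0 in 0 of 12 in HFD versus LFD mice (median -1.24). In icosapent ethyl versus HFD mice it was above 0 in 12 of 12 (median 0.535). For the adrenocortical markers it was above 0 in 8 of 8 and in 0 of 8 (medians 0.45 and -0.137). None of these markers passed the threshold in either comparison. The sum of 7 macrophage markers was between 424 and 617 CPM in LFD and 325 and 386 CPM in HFD mice, without overlap, and between 340 and 367 CPM in icosapent ethyl mice, also below all LFD mice. The sum of 7 mesothelial and capsular markers, of which 5 were above 1 CPM, was between 94.4 and 160 CPM in LFD, 99.2 and 131 CPM in HFD, and 109 and 137 CPM in icosapent ethyl mice, and the median log2 fold change of these markers was 0.93 in icosapent ethyl versus HFD mice, where 0 of 7 passed the threshold. The adipocyte markers, 8 in all, were detected too, with a sum between 139 and 294 CPM in LFD, 219 and 326 CPM in HFD, and 181 and 294 CPM in icosapent ethyl mice. *Plin1* alone was between 113 and 223 CPM over the 12 mice, and the next highest marker, *Car3*, had a mean of 38.4 CPM. The adipocyte sum thus mostly follows *Plin1*. Of these 8 markers, 6 had a log2 fold change above 0 in HFD versus LFD mice. The part of these cells in the differences described here was not tested beyond the fits with chromaffin or adipocyte markers as a covariate. In bulk RNA, fewer cells of a type and less RNA per cell cannot be told apart.

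Promoter sequences are shown for the cAMP-degrading paralogs *Pde8b* and *Pde8a*, because *Pde8b* was the gene past the threshold below and *Pde8a* was not, and for the site in *Prkar1a* that held the full cAMP response element. They are from RefSeq on GRCm38.p6 and read 5′ to 3′ on the strand of the gene. The *Pde8b* sequence is chr13:95250337-95250586 (minus strand) and the *Pde8a* sequence chr7:81213015-81213264 (plus strand), each the 250 bases before an annotated start, and the *Prkar1a* sequence is chr11:109650889-109650918 (plus strand), 30 bases that end 31 bases before a start. Capitals mark the letters TGACG in *Pde8a* and TGACGTCA in *Prkar1a*.
Pde8b: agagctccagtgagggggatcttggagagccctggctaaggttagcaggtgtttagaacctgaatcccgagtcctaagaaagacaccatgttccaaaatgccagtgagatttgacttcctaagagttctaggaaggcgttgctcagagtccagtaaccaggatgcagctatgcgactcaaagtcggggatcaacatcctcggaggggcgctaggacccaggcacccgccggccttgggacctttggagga
Pde8a: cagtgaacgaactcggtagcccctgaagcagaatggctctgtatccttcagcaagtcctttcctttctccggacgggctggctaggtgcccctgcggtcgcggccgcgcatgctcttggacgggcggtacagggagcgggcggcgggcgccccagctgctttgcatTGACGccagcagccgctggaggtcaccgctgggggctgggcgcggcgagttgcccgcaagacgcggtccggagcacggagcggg
Prkar1a: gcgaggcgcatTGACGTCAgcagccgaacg

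Windows from 250 bases before to 50 bases after each annotated start were available for 8 of the 10 genes and were searched on both strands. The full cAMP response element TGACGTCA was in 1.79% of all 32851 windows and 2.03% of all genes, and in 1 of the 8 genes, *Prkar1a*, where 2 overlapping windows of its 6 held the same site. The shorter form TGACG, which the full element contains, was in 20.8% of all windows and 23% of all genes, and in 6 of the 8 genes, in windows of *Gnas*, *Pde8a*, *Prkaca*, *Prkar2a*, *Prkar1a*, and, at position 39 from a downstream start, *Pde8b*. CAAGGTCA, the binding sequence of the adrenal nuclear receptor NR5A1, was in 1.56% of all windows and 1.76% of all genes, and in 0 of the 8 genes. Genes with more windows have more chances of a match. *Prkar1a* had 6 windows, *Pde8b* 5, and *Gnas* 4, against 32851 windows for 27025 genes in all. The shares per gene are thus not compared on equal terms. A match describes these letters and not a bound site.

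With HFD, *Pde8b* rose, *Mc2r* and *Prkar2b* had higher means without passing the threshold, and the other 7 genes were not past it either. Differences were tested by edgeR (quasi-likelihood F test) at an adjusted p below 0.05, with Benjamini-Hochberg adjustment over all genes tested. Of the 10 genes, 1 passed in HFD versus LFD mice as higher and 0 as lower, against 1.45% of all 15909 genes tested (0.974% as higher). This call, of *Pde8b*, held in 1 of the 8 fits that each left out 1 mouse. It did not hold with chromaffin markers as a covariate. The HFD and LFD groups did not overlap in 2 of the 10 genes, *Mc2r* and *Pde8b*, both with HFD higher, against 13.5% of all genes (7.71% with HFD higher and 5.81% with HFD lower). The median log2 fold change of the 10 genes was 0.14, and 8 of them were above 0, against a median of -0.015 and 48.2% above 0 over all genes tested. The 10 genes were chosen with earlier results of these data known, so that these shares are descriptions only. With icosapent ethyl on the HFD, none of the 10 genes passed the threshold.

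**Figure D1:**
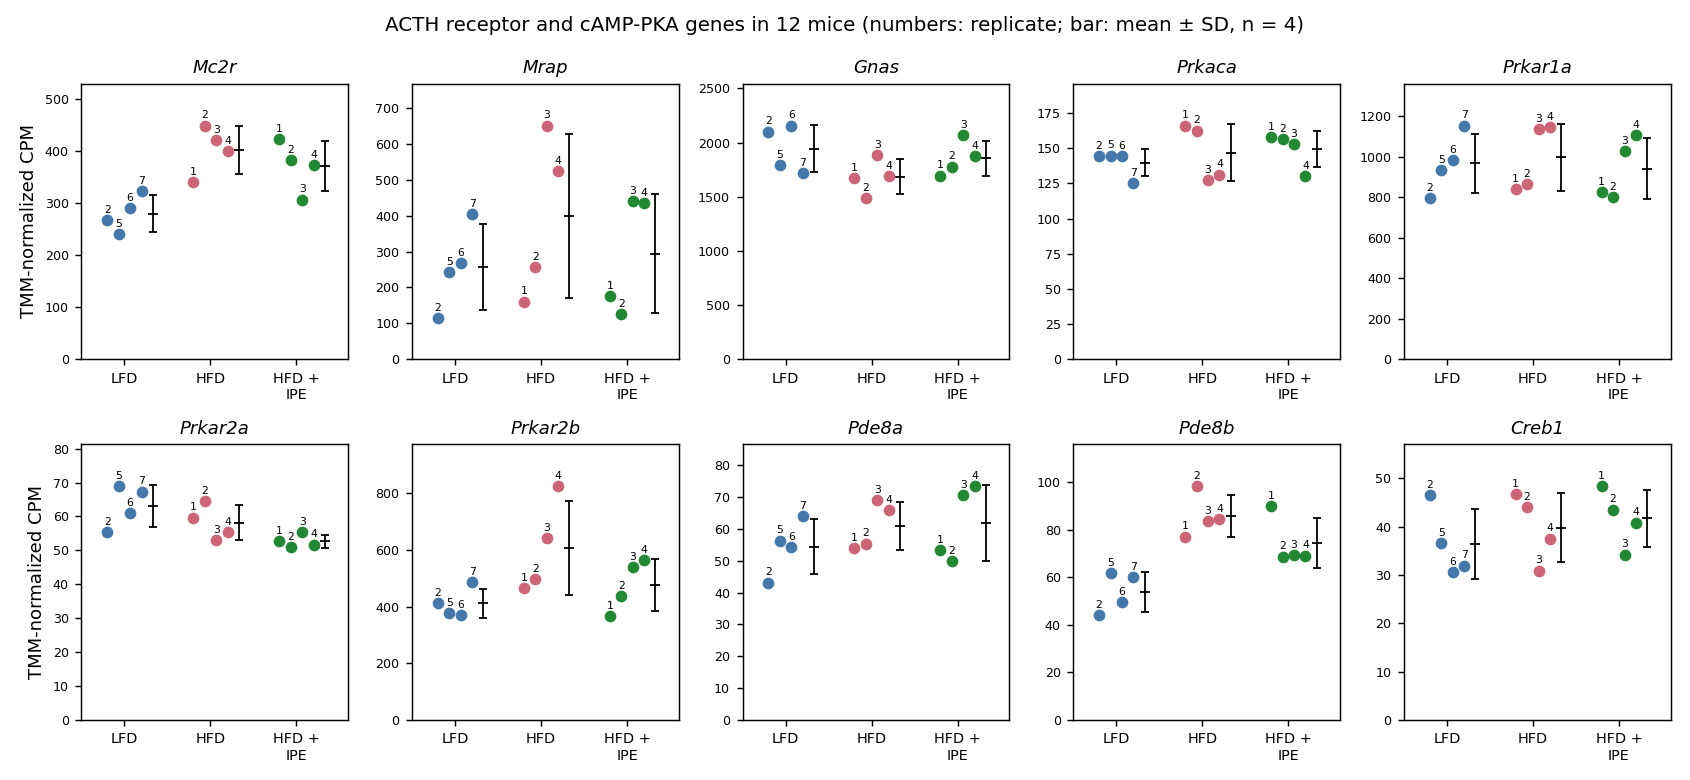
TMM-normalized CPM of the 10 genes in each of the 12 mice, with 1 panel per gene, the replicate number above each point, and a bar for the mean ± SD of 4 mice beside each group (IPE, icosapent ethyl). The LFD and HFD mice do not overlap in *Mc2r* and *Pde8b*, and *Mrap* ranges from 114 to 652 CPM over the 12 mice.

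*Mc2r* encodes the ACTH receptor (ENSMUSG00000045569, chromosome 18 of GRCm38 from 68406907 to 68429320, minus strand). Its level in LFD mice was 266.7 CPM in replicate 2, 239.9 CPM in replicate 5, 290.5 CPM in replicate 6, and 322 CPM in replicate 7. In HFD mice it was 340.0, 449, 420.4, and 399.8 CPM in replicates 1 to 4, so that every HFD mouse lay above every LFD mouse, the nearest pair being LFD replicate 7 and HFD replicate 1. LFD mice had a mean of 280 ± 35.1 CPM and HFD mice one of 402 ± 46.1 CPM (SD, 4 mice in each group), and the log2 fold change was 0.52 (95% interval 0.26 to 0.78, adjusted p = 0.0580 by edgeR). *Mc2r* passed in DESeq2's Wald test (adjusted p = 0.00603), which called 12.9% of all genes. By edgeR it passed without HFD replicate 1 (0.59, adjusted p = 0.0308) and without a filter on low counts (adjusted p = 0.0496). It also passed by edgeR with all 12 mice in 1 fit (adjusted p = 0.0455), where 3.42% of all genes passed. With adipocyte markers as a covariate it passed by edgeR as well (0.56, adjusted p = 0.0220), where 2580 genes passed, against 230 without the covariate. *Mc2r* did not pass by edgeR with DESeq2's size factors (adjusted p = 0.0656), with library totals (0.42, adjusted p = 0.0735), with at least 10 counts required in every mouse (adjusted p = 0.0567), with chromaffin markers as a covariate (0.38, adjusted p = 0.524), or without any 1 of the other 7 mice (adjusted p between 0.0824 and 0.151). In icosapent ethyl mice the level was 423, 383, 306, and 372 CPM in replicates 1 to 4, and replicate 3 was below the highest LFD mouse. The log2 fold change against HFD mice was -0.12 (95% interval -0.39 to 0.16, adjusted p = 0.9997 by edgeR) and against LFD mice 0.41 (0.13 to 0.69, adjusted p = 0.255).

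*Mrap*, for the accessory protein that carries the receptor to the cell surface (ENSMUSG00000039956, chromosome 16 from 90738207 to 90749785, plus strand), varied more between mice of the same group than any other of the 10 genes. Its SD within groups was 0.87 on the log2 scale, higher than or equal to that of 98.6% of the 9479 genes with a mean of at least 10 CPM, whose median was 0.19, while *Mc2r* was at 0.18. In LFD mice it was expressed at 114, 243, 267.1, and 405 CPM in replicates 2, 5, 6, and 7. In HFD mice the values were 161 and 257 CPM in replicates 1 and 2 and 652 and 525 CPM in replicates 3 and 4. The icosapent ethyl mice split alike, with 176 and 125 CPM in replicates 1 and 2 and 440.0 and 435 CPM in replicates 3 and 4. All 3 groups overlapped, and no comparison was past the threshold by edgeR (log2 fold change 0.63 for HFD versus LFD, 95% interval -0.43 to 1.69, adjusted p = 0.436, and -0.44 for icosapent ethyl versus HFD, -1.63 to 0.75, adjusted p = 0.9997). The first of these intervals includes a log2 change of 1 and the second one of -1, so that *Mrap* changes of that size were not excluded.

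The level of *Mrap* went along with the summed level of the adrenocortical markers. Of these markers *Star* varied most, from 6839 to 36145 CPM over the 12 mice, while *Hsd3b1* was between 13270 and 18987 CPM. *Star*, *Scarb1*, *Cyp11a1*, *Fdx1*, and *Fdxr* are also listed below as cAMP-responsive targets. Cortical cell content and the response to cAMP therefore cannot be told apart in this sum. In HFD mice the summed adrenocortical markers were at 53644, 68904, 97456, and 93679 CPM in replicates 1 to 4, so that the mice with the most *Mrap* also had the most marker RNA. Icosapent ethyl replicate 1, at 69019 CPM of markers, had 176 CPM of *Mrap*, whereas LFD replicate 7, at 69983 CPM of markers, had 405 CPM. *Junb*, an immediate-early gene, was at 1475 and 1373 CPM in HFD replicates 1 and 2 and at 69.4 and 46.5 CPM in HFD replicates 3 and 4. It was at 1364, 762, 314, and 44.0 CPM in icosapent ethyl replicates 1 to 4, and at between 38.3 and 67.3 CPM in LFD mice, which include LFD replicate 2 with its low *Mrap*. The part of these differences in the level of *Mrap* was not tested. Mouse adipocytes also express *Mc2r* and *Mrap*. The sum of the adipocyte markers, which mostly follows *Plin1*, was at 326, 319, 246, and 219 CPM in HFD replicates 1 to 4. The part of adipocytes in the level of *Mrap* was not tested. Per kilobase of exon, the ratio of *Mrap* to *Mc2r* was between 0.439 and 1.30 in LFD, 0.487 and 1.60 in HFD, and 0.338 and 1.48 in icosapent ethyl mice.

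**Figure D2:**
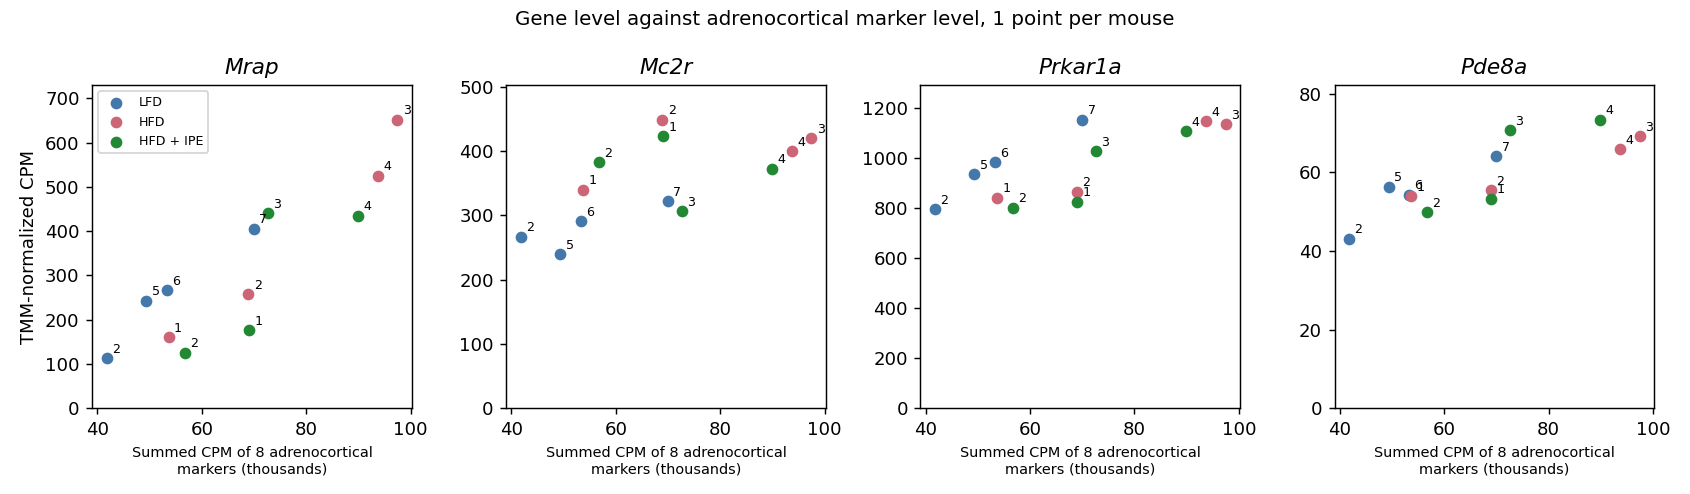
TMM-normalized CPM of *Mrap*, *Mc2r*, *Prkar1a*, and *Pde8a* against the summed CPM of 8 adrenocortical markers, with 1 point per mouse and its replicate number (IPE, icosapent ethyl). *Mrap* is highest, at 652 CPM, in the mouse with the highest marker sum, 97456 CPM, and lowest, at 114 CPM, in the mouse with the lowest, 41794 CPM, while *Mc2r* is highest, at 449 CPM, at a marker sum of 68904 CPM.

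Genes whose profile over the 12 mice lay nearest to these were found by the root mean square difference of mean-centered log2 CPM, among the 9479 genes of at least 10 CPM. For *Mc2r* they were *Kctd3* (0.11 on the log2 scale), *Laptm4b* (0.12), *Bspry* (0.12), *Sparc* (0.12), and *Hsd3b1* (0.13), against 0.27 for the deviation of *Mc2r* from its own mean. *Hsd3b1* encodes a steroidogenic enzyme. Reads that align equally well to its paralog *Hsd3b6* can be lost from its count at the minimum alignment quality of 20. For *Mrap* they were *Ppard* (0.17), *Cyp51* (0.20), *Bzw1* (0.22), *Lgr4* (0.22), and *Got1* (0.23), against 0.79 for *Mrap* itself. *Cyp51* encodes an enzyme of sterol synthesis. These distances are descriptions over 12 libraries that share their diet groups.

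*Gnas* encodes the alpha subunit of Gs (ENSMUSG00000027523, chromosome 2 from 174284320 to 174346744, plus strand) and had the highest CPM of the 10 genes in all 12 mice. The deposited count is 1 number for a locus with several promoters, so that its transcripts cannot be separated. In LFD mice it was at 2101, 1793, 2156, and 1721 CPM in replicates 2, 5, 6, and 7, and in HFD mice at 1671, 1486, 1885, and 1691 CPM in replicates 1 to 4. The groups overlapped, with a log2 fold change of -0.22 (95% interval -0.48 to 0.049, adjusted p = 0.284 by edgeR). In icosapent ethyl mice it was between 1694 and 2068 CPM, with a log2 fold change of 0.14 against HFD mice (95% interval -0.093 to 0.37).

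The PKA genes were expressed at very different levels. Per kilobase of exon, the mean level in LFD mice was 224 CPM for *Prkar1a* (ENSMUSG00000020612, chromosome 11 from 109649405 to 109669656, plus strand), 113 CPM for *Prkar2b* (ENSMUSG00000002997, chromosome 12 from 31958476 to 32061296, minus strand), 56.1 CPM for *Prkaca* (ENSMUSG00000005469, chromosome 8 from 83972993 to 83996443, plus strand), and 9.90 CPM for *Prkar2a* (ENSMUSG00000032601, chromosome 9 from 108689314 to 108750436, plus strand). *Prkaca* encodes the main catalytic subunit, *Prkar1a* the type I regulatory subunit whose loss in humans causes cortisol-producing adrenal hyperplasia, and *Prkar2a* and *Prkar2b* the type II regulatory subunits. In the same unit *Mc2r* was at 172 CPM, *Mrap* at 163 CPM, and *Gnas* at 174 CPM, while *Pde8a* was at 13.5 CPM, *Pde8b* at 9.15 CPM, and *Creb1* at 2.65 CPM. Lengths are the union of all annotated exons of a gene. The order of *Gnas*, *Mc2r*, and *Mrap* cannot be read from these means. Their union lengths were 11186, 1631, and 1581 bases, and that of *Gnas* joins the exons of several promoters. In CPM, not divided by length, *Gnas* was above *Mc2r* and *Mrap* in all 12 mice. Among LFD mice the CPM of *Gnas*, *Mc2r*, and *Mrap* varied by 11.2%, 12.5%, and 46.5% (SD as a share of the mean).

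*Prkar2b* was at 412, 377, 371, and 485 CPM in LFD replicates 2, 5, 6, and 7 and at 465, 496, 642, and 825 CPM in HFD replicates 1 to 4. HFD replicate 1 was below LFD replicate 7, and the other 3 HFD mice were above all LFD mice. The log2 fold change was 0.55 (95% interval 0.15 to 0.96, adjusted p = 0.116 by edgeR), with an unadjusted p of 0.0130. *Prkar2b*, *Mc2r*, and *Pde8b*, all higher in HFD mice, were the 3 of the 10 genes with an unadjusted p below 0.05, against 24.8% of all genes (12.4% as higher). *Prkar2b* passed with adipocyte markers as a covariate (0.66, adjusted p = 0.0289 by edgeR), where 2580 genes passed, against 230 without the covariate. It did not pass in DESeq2's test (adjusted p = 0.0537). In icosapent ethyl mice it was at 367, 437, 540.2, and 565 CPM in replicates 1 to 4, a log2 fold change of -0.35 against HFD mice (95% interval -0.81 to 0.12) and 0.22 against LFD mice (-0.12 to 0.55).

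*Prkar1a* stayed between 797 and 1154 CPM in LFD, 842 and 1148 CPM in HFD, and 802 and 1108 CPM in icosapent ethyl mice. Its log2 fold change was 0.038 in HFD versus LFD mice (95% interval -0.28 to 0.36), and its direction turned with library totals (-0.068), with the chromaffin covariate (-0.090), and without each of 3 single mice (-0.036 to -0.015). Within the HFD and the icosapent ethyl group, replicates 3 and 4 were above replicates 1 and 2, as for *Mrap*. *Prkaca* was at 144, 145, 144, and 125 CPM in LFD replicates 2, 5, 6, and 7 and between 128 and 166 CPM in HFD and 130 and 158 CPM in icosapent ethyl mice, with a log2 fold change of 0.064 in HFD versus LFD mice (95% interval -0.19 to 0.32). *Prkar2a* was between 55.4 and 68.9 CPM in LFD, 52.9 and 64.6 CPM in HFD, and 50.8 and 55.3 CPM in icosapent ethyl mice. All icosapent ethyl mice were thus below all LFD mice in *Prkar2a* (log2 fold change -0.26, 95% interval -0.47 to -0.057), but with an adjusted p of 0.271 by edgeR.

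The make-up of the regulatory subunits was compared as the share of each gene in the summed level of *Prkar1a*, *Prkar1b*, *Prkar2a*, and *Prkar2b* per kilobase of exon. *Prkar2b* took 33.2%, 28.0%, 26.5%, and 30.3% in LFD replicates 2, 5, 6, and 7 and 35.1%, 36.3%, 36.8%, and 42.9% in HFD replicates 1 to 4, so that every HFD mouse had a larger share than every LFD mouse. The means were 29.5 ± 2.89% and 37.8 ± 3.47% (SD, n = 4 each), given as a description and not tested. Icosapent ethyl mice were at 30.7%, 34.8%, 35.0%, and 34.7% in replicates 1 to 4. Replicate 1 was within the LFD range. Replicates 2 to 4 lay above the highest LFD mouse, at 33.2%, and just below the lowest HFD mouse, at 35.1%. *Prkar1a* took 58.4 ± 2.89% in LFD, 53.2 ± 1.94% in HFD, and 56.6 ± 1.83% in icosapent ethyl mice, and *Prkar2a* never more than 2.93%. *Prkar1b*, a type I subunit known mainly from neurons, took 9.53 ± 2.19% in LFD and 6.86 ± 1.48% in HFD mice. *Prkaca* made up between 70.0% and 75.1% of the summed *Prkaca* and *Prkacb* level per kilobase in all 12 mice.

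**Figure D3:**
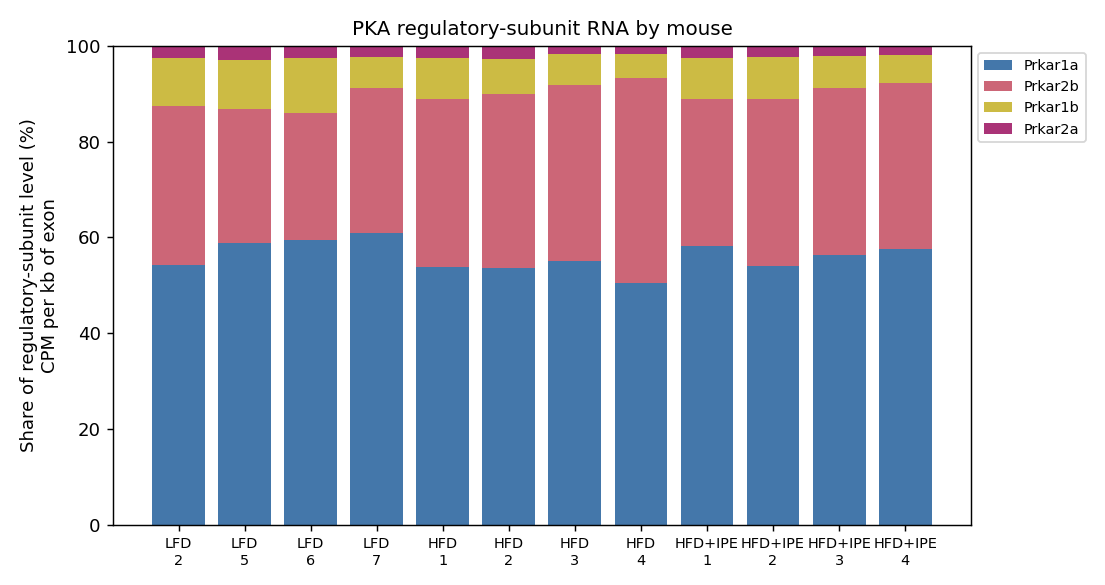
Share of *Prkar1a*, *Prkar2b*, *Prkar1b*, and *Prkar2a* in their summed level (CPM per kilobase of exon, in percent) in each of the 12 mice (IPE, icosapent ethyl). The *Prkar2b* share is between 26.5% and 33.2% in LFD and between 35.1% and 42.9% in HFD mice.

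*Pde8b* encodes a high-affinity phosphodiesterase specific for cAMP that restrains the response of the adrenal cortex to ACTH (ENSMUSG00000021684, chromosome 13 from 95024454 to 95250336, minus strand). It was expressed at 44.0, 61.5, 49.6, and 59.9 CPM in LFD replicates 2, 5, 6, and 7. In HFD mice it was at 77.0, 98.1, 83.4, and 84.5 CPM in replicates 1 to 4, and the lowest of these was above the highest LFD mouse. Mean expression rose from 53.8 ± 8.37 to 85.8 ± 8.89 CPM (SD, 4 mice in each group), with a log2 fold change of 0.67 (SE 0.12, 95% interval 0.39 to 0.94, adjusted p = 0.0418 by edgeR). DESeq2's Wald test gave 0.67 (adjusted p = 0.000467). By edgeR the call held with DESeq2's size factors (adjusted p = 0.0481) and with both other filters. By edgeR it also held with all 12 mice in 1 fit and with the adipocyte covariate, where 556 and 2580 genes passed. The adjusted p by edgeR was between 0.0149 and 0.0481 in these fits. The call also held without HFD replicate 1. It was lost without each of the other 7 mice (adjusted p between 0.0601 and 0.137), although the log2 fold change stayed between 0.59 and 0.74 in all 8 of these fits. It was also lost with library totals (0.57, adjusted p = 0.0693 by edgeR), where the median gene shifted to -0.11, and with the chromaffin markers as a covariate (0.47, adjusted p = 0.428), where 0 of all genes passed.

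In icosapent ethyl mice *Pde8b* was at 89.9, 68.6, 69.4, and 69.0 CPM in replicates 1 to 4. Of these, 3 were below all HFD mice and all 4 were above the LFD mice. The log2 fold change was -0.21 against HFD mice (95% interval -0.47 to 0.055, adjusted p = 0.9997 by edgeR) and 0.47 against LFD mice (0.16 to 0.78, adjusted p = 0.247), and it kept its direction without each mouse (-0.31 to -0.14 and 0.36 to 0.54). The paralog *Pde8a*, which encodes a phosphodiesterase of the same family (ENSMUSG00000025584, chromosome 7 from 81213596 to 81334533, plus strand), was between 43.2 and 64.1 CPM in LFD, 53.9 and 69.1 CPM in HFD, and 49.8 and 73.4 CPM in icosapent ethyl mice, and its log2 fold change in HFD versus LFD mice was 0.16 (95% interval -0.13 to 0.45, adjusted p = 0.473 by edgeR). The share of *Pde8b* in the summed *Pde8a* and *Pde8b* level per kilobase was between 38.6% and 42.9% in LFD and 45.4% and 54.9% in HFD mice, without overlap, and between 39.3% and 53.7% in icosapent ethyl mice. The difference between the changes of the paralogs was not tested.

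*Creb1* encodes a transcription factor that PKA phosphorylates (ENSMUSG00000025958, chromosome 1 from 64532645 to 64604548, plus strand), and it had the lowest CPM of the 10 genes on average in each group. It was between 30.6 and 46.5 CPM in LFD, 30.9 and 46.7 CPM in HFD, and 34.2 and 48.3 CPM in icosapent ethyl mice. The log2 fold change was 0.12 in HFD versus LFD mice (95% interval -0.28 to 0.52) and 0.067 in icosapent ethyl versus HFD mice (-0.28 to 0.42).

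**Figure D4:**
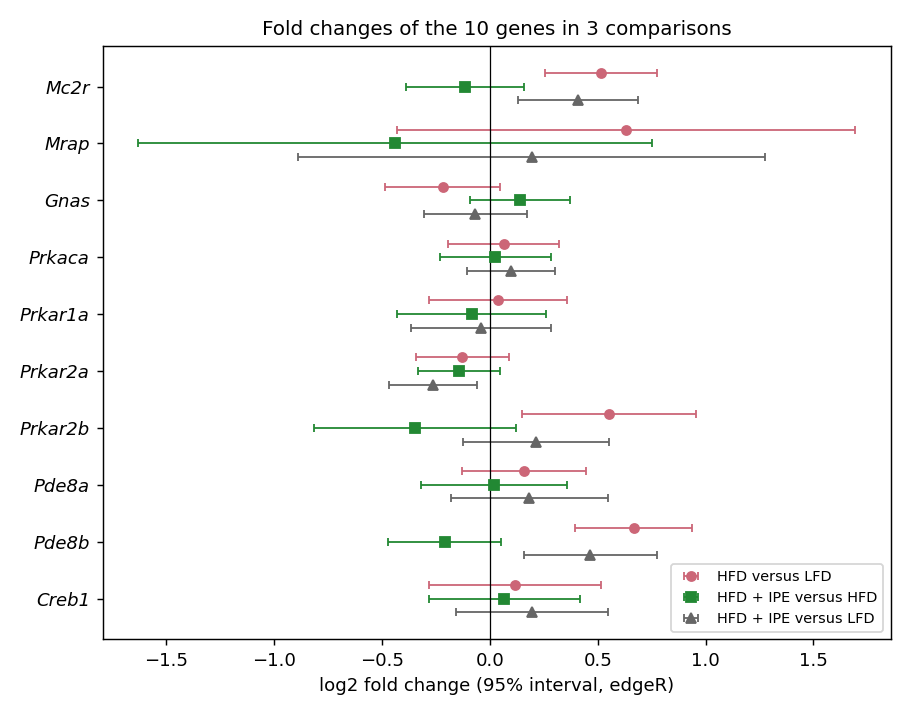
Log2 fold changes of the 10 genes with 95% intervals from edgeR in HFD versus LFD, icosapent ethyl (IPE) versus HFD, and icosapent ethyl versus LFD mice. *Pde8b* has the highest fold change in HFD versus LFD mice, at 0.67, and *Mrap* the widest interval, from -0.43 to 1.69.

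Between icosapent ethyl and HFD mice, 0 of the 10 genes were past the threshold by edgeR, against 0% of all 15913 genes tested, and 0 had an unadjusted p below 0.05, against 1.39% of all genes. DESeq2 also called 0 of the 10, against 0.0377% of all genes. The groups overlapped in all 10 genes, whereas they did not in 1.14% of all genes. With the replicate number as a block, 0 of the 10 genes and 0% of all genes passed, and 2 of the 10, *Prkar2b* (log2 fold change -0.33, unadjusted p = 0.00562, adjusted p = 0.889 by edgeR) and *Mrap* (-0.43, unadjusted p = 0.0464, adjusted p = 0.889), had an unadjusted p below 0.05, against 4.37% of all genes. The log2 fold change was above 0 in 4 of the 10 genes, against 51.1% of all genes. *Mc2r*, *Pde8b*, *Prkar2b*, and *Mrap* had a lower mean in icosapent ethyl than in HFD mice, with log2 fold changes of -0.12, -0.21, -0.35, and -0.44, each with an interval that includes 0. This comparison uses the same 4 HFD mice as the comparison with LFD. Against LFD mice, 0 of the 10 genes were past the threshold in icosapent ethyl mice, against 0% of 15935 genes by edgeR and 0 of the 10 against 2.99% of all genes by DESeq2. *Mc2r* and *Pde8b* as higher and *Prkar2a* as lower had an unadjusted p below 0.05, against 7.29% and 6.67% of all genes in these directions and 14% in either. The groups did not overlap in *Pde8b*, as higher, and *Prkar2a*, as lower, against 4.04% and 3.69% of all genes in these directions and 7.73% in either. The log2 fold change was above 0 in 7 of the 10 genes, against 49.4% of all genes.

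Of 98 further genes of the pathway, 88 were tested in HFD versus LFD mice, and 1 was past the threshold by edgeR as higher and 0 as lower, near the share of 1.45% over all genes (0.974% as higher). It was *Gnai1*, which encodes an inhibitory G protein alpha subunit that opposes Gs at adenylyl cyclase. *Gnai1* was at 13.5, 17.2, 15.8, and 20.3 CPM in LFD replicates 2, 5, 6, and 7 and at 24.5, 34.0, 45.1, and 36.7 CPM in HFD replicates 1 to 4, without overlap, a log2 fold change of 1.06 (95% interval 0.63 to 1.49, adjusted p = 0.0418 by edgeR). It passed without 1 of the 8 mice and not without the other 7. The icosapent ethyl mice were at 40.2, 20.3, 27.2, and 42.5 CPM in replicates 1 to 4, where replicate 2 was within the LFD range, and the log2 fold change against LFD mice was 0.96 (adjusted p = 0.202 by edgeR).

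The next lowest p-values of the pathway in HFD versus LFD mice were those of *Akap11*, an A-kinase anchoring protein that holds PKA at its sites, and *Atf1*, a relative of *Creb1*. *Akap11* was between 64.0 and 79.3 CPM in LFD and 88.0 and 97.7 CPM in HFD mice, a difference of 0.36 on the log2 scale (95% interval 0.18 to 0.55, adjusted p = 0.0598 by edgeR). *Atf1* was between 41.5 and 42.1 CPM in LFD and 49.5 and 54.7 CPM in HFD mice (0.30, 95% interval 0.14 to 0.46, adjusted p = 0.0644 by edgeR), and all icosapent ethyl mice, at between 36.6 and 49.1 CPM, were below the HFD mice (-0.23, adjusted p = 0.9997). Neither gene had LFD and HFD mice that overlapped, as in 7.71% of all genes with HFD higher. Icosapent ethyl and HFD mice did not overlap in 1.14% of all genes, and of the 88 pathway genes tested in 1, *Atf1*. Between icosapent ethyl and HFD mice, the lowest p-values besides *Atf1* were those of *Pde1c*, a phosphodiesterase gene at between 0.0387 and 0.658 CPM in all mice, and the adenylyl cyclase gene *Adcy7* (log2 fold change -0.28), neither past the threshold. Between icosapent ethyl and LFD mice they were those of *Junb*, *Gnai1*, and *Fdxr*, for ferredoxin reductase of the steroid-synthesizing mitochondrial chain. *Fdxr* had a log2 fold change of 0.42 (adjusted p = 0.202 by edgeR). All 4 icosapent ethyl mice, at between 1991 and 2439 CPM, were above the LFD mice, at between 1436 and 1825 CPM. Such a separation, as higher, was seen in 4.04% of all genes.

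By role, the adenylyl cyclases had a median log2 fold change of -0.19 in HFD versus LFD mice, with 2 of 9 genes above 0, and the PKA inhibitors and other subunits -0.34, with 1 of 6 above 0. The chromaffin markers had a median of -1.24 in the same comparison, with 0 of 12 above 0. The part of chromaffin cells in the medians of these lists was not tested. The A-kinase anchoring proteins were at 0.23 with 9 of 12 above 0, the phosphodiesterases other than *Pde8a* and *Pde8b* at -0.20 with 5 of 12, and the CREB family, its coactivators and the salt-inducible kinases at 0.29 with 9 of 10. The receptor kinases and arrestins were at -0.079 with 2 of 7 above 0, the G protein subunits at -0.062 with 6 of 13, and the EPAC and Rap genes at -0.0014 with 2 of 4. Of the other melanocortin receptors and *Mrap2*, 1 of 5 genes had enough counts for a test. The 19 cAMP-responsive targets, some of which are also in the other lists, had a median of 0.49 with 12 above 0. At an unadjusted p below 0.05, 8 were higher and 2 lower, against 12.4% and 12.5% of all genes in these directions. By edgeR 0 were past the adjusted threshold, and by DESeq2 4 were higher and 2 lower, against 6.45% and 6.43% of all genes. The 8 higher targets were *Star*, *Scarb1*, *Cyp11a1*, *Cyp11b1*, *Fdxr*, *Fos*, *Junb*, and *Dusp1*. Among them, *Star*, *Scarb1*, *Cyp11a1*, and *Fdxr* are also adrenocortical markers of the sum given above, and *Junb* was high in HFD replicates 1 and 2 only. The 2 lower targets were *Pde4b* (log2 fold change -0.53) and *Pde4d* (-1.80). *Nr4a1* (-0.066), *Nr4a2* (-0.87), *Nr4a3* (-1.16), *Per1* (-0.53), and *Crem* (-0.56) were also below 0, each with an interval that includes 0. The targets thus did not change in 1 direction. All lists were chosen with earlier results of these data known. Of the 88 genes, 0 passed between icosapent ethyl and HFD mice by edgeR or DESeq2 and 1 had an unadjusted p below 0.05, and between icosapent ethyl and LFD mice 0 passed by edgeR, 18 had an unadjusted p below 0.05, and 5 passed by DESeq2, against 0%, 14%, and 2.99% of all genes.

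**Figure D5:**
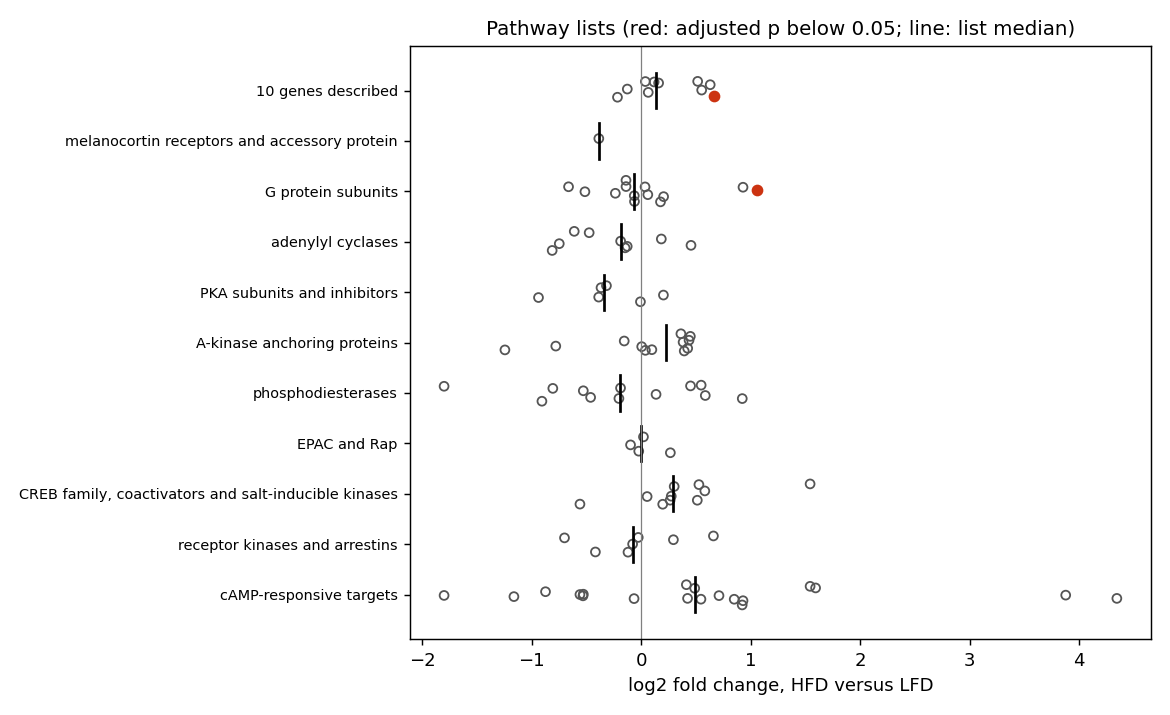
Log2 fold changes in HFD versus LFD mice of the 10 genes and of the pathway lists, with 1 point per gene, filled in red where the adjusted p was below 0.05 by edgeR, and a line at each list's median. Filled points are *Pde8b* (0.67) and *Gnai1* (1.06), and the medians run from -0.39 for a list with 1 tested gene to 0.49 for the cAMP-responsive targets.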

How the data were processed

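For each of the 12 mice, the authors deposited 1 column of unnormalized counts by gene. They trimmed adaptors with cutadapt, aligned reads to GRCm38 with STAR, and counted them on GENCODE M12 genes with HTSeq 0.6.1p1 by strand (minimum alignment quality 20). Symbols, coordinates, and exon lengths came from GENCODE M21, which matched 49326 of 49585 identifiers. Groups were compared in pairs, without covariates, by the quasi-likelihood test of edgeR 4.0.16 (R 4.3.3), with TMM scaling, the filterByExpr filter (minimum count 10), a robust fit, and a Benjamini-Hochberg threshold of 0.05. SE is the absolute log2 fold change divided by the square root of F. DESeq2 1.42.0 was an alternative. Further alternatives were other scaling and filters, all mice in 1 fit, adipocyte or chromaffin markers (mean log2 CPM, prior count 2) as covariates, and leaving out each mouse. Library totals were 34785979 to 67295963 counts, and all 66 library pairs differed beyond counting noise (chi-square per degree of freedom at least 24.5). The procedure was tested on simulated data, where 109 of 200 genes changed by a factor of 2 passed in HFD versus LFD mice (15748 genes).

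Genes named were the 10 members, pathway genes past the threshold (at most 12), the 3 lowest p-values of the pathway lists in each comparison, and the 5 nearest profiles of *Mc2r* and *Mrap* (pseudocount 0.5), besides *Prkar1b*, *Prkacb*, and *Fads2*, which the shares and the check of the genotype needed, and *Hsd3b6* as a paralog. Also named were *Plin1* and *Car3* of the adipocyte markers, and those adrenocortical markers and cAMP-responsive targets that show what the sum and the counts hold. The members and lists were chosen with earlier results of these data known. HFD and icosapent ethyl mice share the numbers 1 to 4, and the correlation of their deviations from the group mean, over 16262 genes, was 0.31, 0.15, 0.39, and 0.76 for equal numbers and up to 0.68 for unequal ones, so the number was also used as a block. LFD mice share only the number 2 with them.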

Additional observations from a re-analysis of the deposited data

Results flagged for a closer look

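In 3 of 30 groups of 4 mice (10 genes in 3 groups), 1 mouse stood apart by Dixon's test at the 95% level, which chance gives in about 1 of 20 groups. *Prkaca* was at 125 CPM in LFD replicate 7 and between 144 and 145 CPM in the other LFD mice. *Prkaca* was at 130 CPM in icosapent ethyl replicate 4 and between 153 and 158 CPM in the others. *Pde8b* was at 89.9 CPM in icosapent ethyl replicate 1 and between 68.6 and 69.4 CPM in the others.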

How the results depend on the processing

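In HFD versus LFD mice, 230 genes, 1 of the 10 members, and 1 other pathway gene were past the threshold. These counts were 2049, 2, and 18 by DESeq2's Wald test, 84, 0, and 2 with library totals, 556, 2, and 3 with all 12 mice in 1 fit, 2580, 3, and 21 with the adipocyte covariate, and 0, 0, and 0 with the chromaffin covariate. Without a filter on low counts, *Mc2r* passed besides *Pde8b*, with an adjusted p of 0.0496 against 0.0580 with the filter (both by edgeR). The number of all genes past the threshold in that fit is not given here, so this call is not set against it. Leaving out 1 mouse gave 0 to 918 genes, 0 to 2 members, and 0 to 4 pathway genes. Only the fit without HFD replicate 1 kept any member past the threshold. Between icosapent ethyl and HFD mice, DESeq2 called 6 genes where edgeR called 0. Between icosapent ethyl and LFD mice, it called 477 genes and 5 pathway genes where edgeR called 0, all 12 mice in 1 fit gave 2 genes, and leaving out 1 mouse gave 0 to 1. The causes were not tested.

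Directions turned only in members close to 0 or, for *Mrap*, widely spread. In HFD versus LFD mice, *Prkaca* turned to -0.026 with library totals and -0.025 with the adipocyte covariate (-0.0024 to 0.14 without 1 mouse), and *Prkar1a* to -0.068 with library totals and -0.090 with the chromaffin covariate (-0.036 to 0.12 without 1 mouse). In icosapent ethyl versus HFD mice, *Pde8a* turned to -0.016 with the adipocyte and *Prkaca* to -0.026 with the chromaffin covariate, and without 1 mouse *Pde8a* was at -0.075 to 0.11, *Prkaca* at -0.036 to 0.091, and *Creb1* at -0.036 to 0.15. In icosapent ethyl versus LFD mice, *Prkar1a* turned to 0.060 with the adipocyte covariate, *Mrap* to -0.19 and *Gnas* to 0.024 with the chromaffin covariate, and without 1 mouse *Prkar1a* was at -0.13 to 0.061 and *Mrap* at -0.060 to 0.51.

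With the replicate number as a block in icosapent ethyl versus HFD mice, 0 genes passed, as without it, and no call of a member changed. At an unadjusted p below 0.05, 696 genes differed with the block and 221 without it.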
